A study of Mus musculus with 12 samples.

Results

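The cytosolic ribosomal protein genes were described in 12 lines of mouse pre-B cells, of which 6 carried an empty vector (EV) and 6 were transformed by BCR-ABL1. They were chosen by symbol alone, as protein-coding GENCODE genes named Rpl or Rps and a number, Rplp0 to Rplp2 or Rpsa, with at least 10 counts in all 12 lines. The rule on symbols found 84 genes among the 51826 genes of the count table, and 82 of them had the counts, 50 of the large (60S) and 32 of the small (40S) ribosomal subunit. The other two, Rpl10l and Rpl39l, germ-line copies of Rpl10 and Rpl39, had at most 4 and 3 counts in a line.

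The lines were made from bone marrow of 2 C57BL/6 mice cultured with IL7 for 7 days, transduced with the retroviral vector pMIG, either empty or carrying BCR-ABL, and kept with IL7 for 48 h. Afterwards IL7 was withdrawn from the BCR-ABL1 lines for 1 week, whereas the EV lines stayed in IL7 and were sorted for GFP, so that BCR-ABL1, the loss of IL7 and the sort cannot be told apart in this comparison. Each mouse gave 3 lines per condition, named A to C, and the lines of 1 mouse share that animal. RNA was sequenced from stranded total RNA libraries, and reads were counted per gene.

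Ribosomal proteins assemble with ribosomal RNA into the subunits that translate all cellular mRNA, and their genes are among the most highly transcribed in dividing cells. Their mRNAs typically start with a C followed by a run of pyrimidines, the 5′ terminal oligopyrimidine (TOP) motif, through which growth signals that act on mTOR and LARP1 adjust their translation and stability. Several proteins also have roles outside the ribosome, and a few have paralogs that can take their place in it.

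The annotated starts of 7 of these genes are printed, some with the pyrimidine run that most of the family is known for and some without it. Each line runs 5′ to 3′ on the gene's strand, from 80 bases before the annotated RefSeq start (GRCm38.p6) through the first 20 bases from it, in lower case. Capitals mark a run of at least 7 C or T that covers the start, or the letters CCGGAAG, a core sequence bound by ETS factors.
Rps6 (chr4:86857348-86857447, minus strand): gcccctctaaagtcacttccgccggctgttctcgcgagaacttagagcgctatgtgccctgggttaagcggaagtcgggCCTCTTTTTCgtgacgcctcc
Rps18 (chr17:33955646-33955745, minus strand): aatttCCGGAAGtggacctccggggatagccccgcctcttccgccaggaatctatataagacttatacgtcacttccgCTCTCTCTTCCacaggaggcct
Rps27 (chr3:90213629-90213728, minus strand): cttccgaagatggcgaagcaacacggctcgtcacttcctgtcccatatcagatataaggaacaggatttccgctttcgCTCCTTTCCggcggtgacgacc
Rps27l (chr9:66946006-66946105, plus strand): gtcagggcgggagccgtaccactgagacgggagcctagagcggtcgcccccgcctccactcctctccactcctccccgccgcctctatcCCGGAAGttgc
Rpl22 (chr4:152325646-152325745, plus strand): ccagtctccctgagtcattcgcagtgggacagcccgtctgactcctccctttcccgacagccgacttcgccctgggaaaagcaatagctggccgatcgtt
Rpl22l1 (chr3:28805428-28805527, plus strand): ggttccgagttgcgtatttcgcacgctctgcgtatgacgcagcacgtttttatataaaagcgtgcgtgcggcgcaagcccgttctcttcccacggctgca
Rpl3l (chr17:24727746-24727845, plus strand): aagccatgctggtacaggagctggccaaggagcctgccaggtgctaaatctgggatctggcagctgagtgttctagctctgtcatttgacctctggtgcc
Rps6, Rps18 and Rps27 had runs of 10, 11 and 9 pyrimidines over the start, and Rps27l, Rpl22, Rpl22l1 and Rpl3l had none of at least 7 over it. In Rpl22l1 the annotated start is a G, and the pyrimidine stretch ttctcttccc follows it directly. That stretch is not counted, since it does not cover the annotated start. Windows of 300 bases around the start were given for 62 of the 82 genes, 74 windows in all. A run of at least 7 pyrimidines covered the annotated start in 25.7% of them, against 5.28% of all 32851 windows and 1.33% of those of mitochondrial ribosomal protein genes. CCGGAAG on either strand was in 35.1% of the windows, against 8.86% of all and 34.7% of those of mitochondrial ribosomal protein genes. CACGTG, an E-box that Myc can bind and that reads the same on both strands, was in 10.8% against 7.15% of all windows. A start annotated a few bases away from the one used hides such a run, so the share is that of the annotation.

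Total counts ranged from 34791011 to 66011225 per line. All 15 markers of the B lineage had more than 3 counts in every line, and their summed level ranged from 6452 to 10270 CPM (counts of a gene scaled to a common library size) in EV and from 5818 to 6854 in BCR-ABL1 lines. The 12 myeloid markers summed to 0.292 to 2.21 CPM in EV and 1.78 to 4.43 in BCR-ABL1 lines, mostly through Fcgr3 in the latter (1.14 to 3.68 CPM), and those of stroma to at most 2.42. The 11 T and NK cell markers summed to 11.2 to 42.0 CPM in EV and 0.706 to 4.77 in BCR-ABL1 lines. Trac alone gave 9.99 to 41.1 CPM of the EV sum, whereas Cd3e, Cd4, Cd8a and Nkg7 were at most 0.215 CPM in any line. Klrb1c ranged from 0.029 to 1.07 CPM in EV and from 0.353 to 3.68 in BCR-ABL1 lines. Cd3d ranged from 0.234 to 0.644 and from 0.030 to 0.116 CPM. The 8 erythroid markers summed to 1.28 to 6.83 and 5.94 to 12.7 CPM, mostly Hbb-bt (0.974 to 6.49 and 5.71 to 12.4), with Hba-a1 at 0 in all lines. The part of these markers in the results was not tested. EV 2C stood apart from the other EV lines: its Mycn was 76.4 CPM against 2.83 to 6.53 in the other 5 and 99.9 to 106 in BCR-ABL1 lines, and its Myc 195 against 31.0 to 90.2 in the other EV lines. In BCR-ABL1 2A, Rps16 stood apart. Results are given with all lines, and calls of named genes that turned without EV 2C are stated.

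The 82 genes took a larger share of the counts in BCR-ABL1 lines. Their summed share was 7.38%, 8.09% and 8.71% in EV 1A to 1C and 8.18%, 6.74% and 10.95% in EV 2A to 2C. In BCR-ABL1 lines it was 10.39%, 10.56% and 10.2% in 1A to 1C and 11.07%, 9.42% and 9.10% in 2A to 2C. EV 2C was thus the only EV line within the range of the BCR-ABL1 lines, and the other 5 lay below all of them. The mean was 8.34% ± 1.45 (SD, n = 6) in EV and 10.12% ± 0.736 (SD, n = 6) in BCR-ABL1 lines, a difference of 1.78 percentage points or 1.21-fold (two-sided exact permutation test, p = 0.026, with 0.00216 the smallest p possible). Counting error was far smaller, with 95% Wilson intervals of at most 0.0091 percentage points to either side. Permuting within each mouse gave p = 0.035 by the exact test.

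The difference depended on the lines and on what the share was taken of. Without EV 2C it was 2.31 points, p = 0.00216 by the exact permutation test. In mouse 1 alone it was 2.33 points, with all 3 BCR-ABL1 lines above the 3 EV lines, and in mouse 2 it was 1.24 points with overlapping lines. With 3 lines against 3 the exact permutation test cannot give a p below 0.1, and it gave 0.1 and 0.4. As a share of counts on protein-coding genes only, the difference was 1.45 points (exact permutation p = 0.0628), and without the 50 largest other genes it was 1.63 points (p = 0.0649, exact permutation). Protein-coding genes took 83.2% to 91.1% of the counts in EV lines and 92.4% to 93.6% in BCR-ABL1 lines, and the nuclear RNA Malat1 took 0.905% ± 0.204 against 0.487% ± 0.0784 (SD, n = 6 each), with no overlap between conditions. Genes of the mitochondrial genome took 3.02% ± 0.462 in EV and 2.16% ± 0.558 in BCR-ABL1 lines (SD, n = 6 each; exact permutation p = 0.0108), and without them the difference in the share was 1.75 points (exact permutation p = 0.0303). The part of these differences in the share was not tested. Since counts are relative, a larger share does not tell more ribosomal protein mRNA per cell from less of other RNA.

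**Figure D1:**
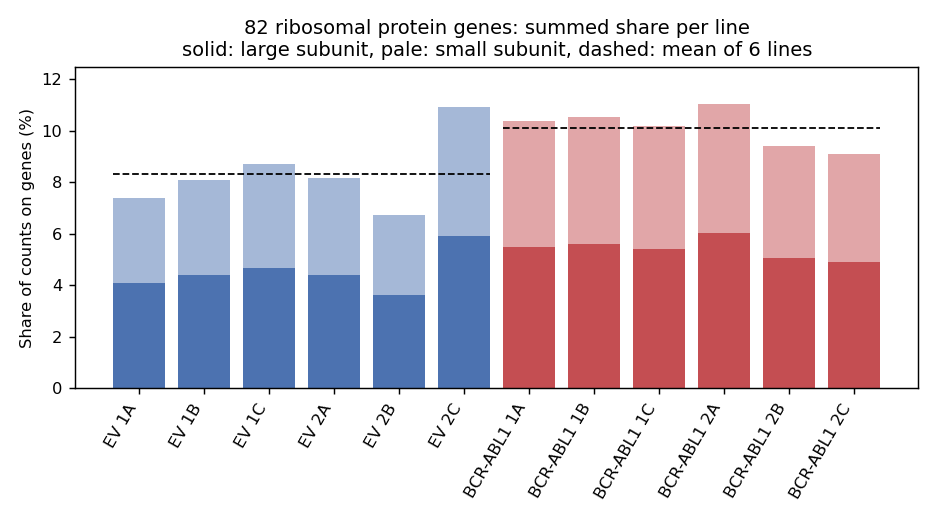
Summed share of the 82 genes in the counts of each line (%), EV lines in blue and BCR-ABL1 lines in red, with the large subunit in solid and the small subunit in pale colour and the mean of 6 lines dashed. The EV lines lie between 6.74% and 8.71% except EV 2C at 10.95%, and the BCR-ABL1 lines between 9.10% and 11.07%.

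The ratio of the subunits differed by less than the test could call. The large subunit had 1.183 ± 0.0284 (SD, n = 6) times the counts of the small one in EV and 1.155 ± 0.0288 (SD, n = 6) times in BCR-ABL1 lines (exact permutation p = 0.128). Per gene, levels were scaled with TMM, and differences were tested over 15038 genes with the quasi-likelihood test of edgeR. Fold changes of single genes are those of that fit. The standard error (SE) beside them is that of the difference of mean log2 CPM between conditions, which is another estimate. Tested against no change at a Benjamini-Hochberg adjusted p (FDR) under 0.05, 41 of the 82 genes (50.0%) were higher in BCR-ABL1 lines and 1 was lower, where 22.5% of all tested genes rose and 25.9% fell. Over the 82 genes the median log2 fold change was 0.34, beside -0.02 over all tested genes, and 79 of them were positive. Of the large subunit 26 of 50 were called higher (median 0.34), and of the small subunit 15 of 32 (median 0.36). Without EV 2C the median was 0.46 and 69 genes were called higher, beside 26.5% of all genes.

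These changes were small. Against a 1.5-fold change, the threshold that the study used, 1 of the 82 genes was higher, Rpl22l1, and 1 was lower, Rpl3l, where 5.99% of all tested genes were higher and 6.49% lower. Both are paralogs of a core protein. Without EV 2C, Rps27l and Rps2 also passed the 1.5-fold test (log2 fold changes of 1.03 and 0.84 in that fit). Groups that did not overlap were found in 6 genes. Rpl22l1, Rps20, Rpl36al, Rpl3 and Rpl4 were higher in every BCR-ABL1 line than in any EV line (6.1% of the 82, 12.1% of all genes tested), and Rpl3l was lower in every one, as were 13.5% of all genes.

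**Figure D2:**
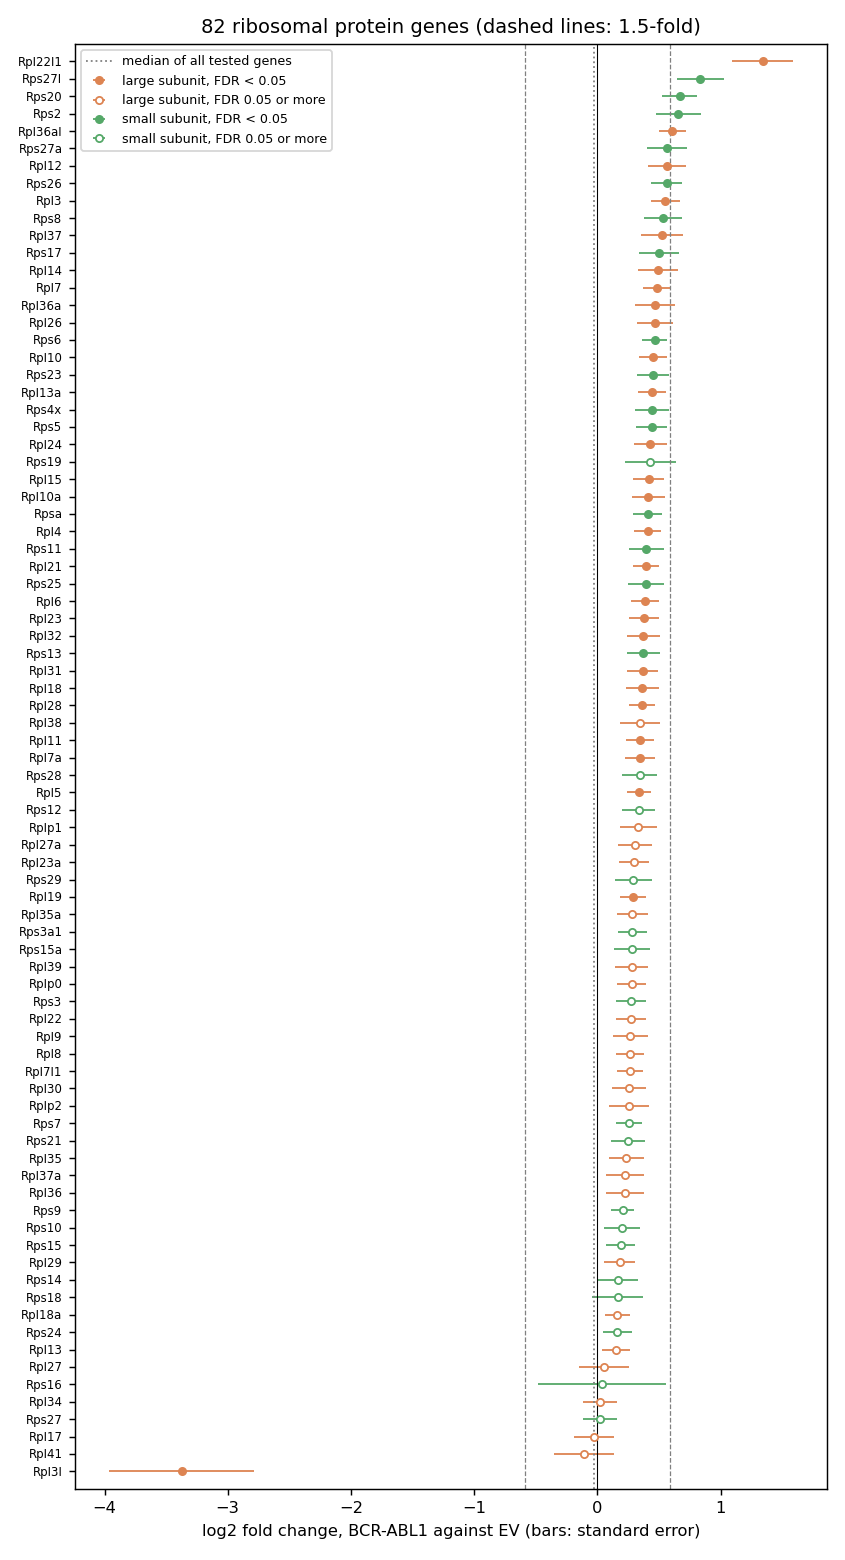
Log2 fold change of each of the 82 genes between BCR-ABL1 and EV lines, large subunit in orange and small subunit in green. Bars are the standard error of the difference of mean log2 CPM between conditions. Points are filled where the FDR against no change was under 0.05. Apart from Rpl22l1 at 1.34, Rps27l at 0.84 and Rpl3l at -3.38 the genes lie between -0.11 and 0.67.

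Which genes departed from the rest of the family was asked with the summed counts of the 82 as the library size of each line. Only Rpl22l1 was higher and only Rpl3l lower by more than 1.5-fold on this scale, where 4.75% of all tested genes were higher and 13.6% lower. Relative to that sum, the standard deviation of a gene's log2 level over the 12 lines had a median of 0.113 over the family. It ranged from 0.0571 to 2.09, and the widest were Rpl3l at 2.09, Rps16 at 0.929, Rpl22l1 at 0.635, Rpl41 at 0.364 and Rps27l at 0.314. Rps4x and Rps3a1, by contrast, kept to 0.074 and 0.075.

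Rpl22l1 is the paralog of Rpl22, an RNA-binding protein of the large subunit that lymphocyte development requires. It lies on chromosome 3 (28805436 to 28807424, GRCm38). Its level was 61.2, 82.2 and 105.9 CPM in EV 1A to 1C and 147.5, 132.8 and 188.1 CPM in EV 2A to 2C. The BCR-ABL1 lines had 294.2, 286.5 and 295.2 CPM in 1A to 1C and 372.9, 285.6 and 282.1 CPM in 2A to 2C. Every BCR-ABL1 line was above every EV line, and within EV the lines of mouse 2 were above those of mouse 1. The log2 fold change was 1.34 ± 0.249 (SE; edgeR quasi-likelihood test against 1.5-fold, FDR 0.00907), and 1.03 relative to the summed family (FDR 0.0191). It was 1.82 in the lines of mouse 1 and 1.02 in those of mouse 2, and the difference between the mice did not pass the test (FDR 0.0672).

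Rpl22 itself was at 379 to 656 CPM (median 494.0) in EV and 538 to 651 CPM (median 632) in BCR-ABL1 lines, which overlapped. Its log2 fold change of 0.27 ± 0.120 (SE) did not pass the test against no change (FDR 0.0701), and passed it without EV 2C at 0.36. Rpl22l1 reads thus came to 13.3% to 35% of those of Rpl22 in EV and to 44.0% to 57.2% in BCR-ABL1 lines, as ratios of CPM not corrected for length. The coding sequences of the pair were 70.2% identical over 369 aligned bases and shared no stretch of 100 bases, although 50.8% of the 100-base windows of the Rpl22l1 transcript are also found in 2 other annotated genes.

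Rpl3l, the striated-muscle paralog of Rpl3, moved the other way. It lies on chromosome 17 (24727820 to 24736143). Its levels were 6.87, 5.79 and 7.19 CPM in EV 1A to 1C and 20.5, 28.3 and 2.65 in EV 2A to 2C, from 147 to 1423 counts. In BCR-ABL1 lines they were 1.29, 1.86 and 1.73 in 1A to 1C and 0.597, 0.745 and 0.643 in 2A to 2C, from 31 to 89 counts. EV 2C was the lowest EV line and still above all BCR-ABL1 lines. The fitted log2 fold change came to -3.38 ± 0.587 (SE; FDR 0.00278 against 1.5-fold), with -2.02 in mouse 1 and -4.67 in mouse 2 (interaction FDR 0.058). Without EV 2C the interaction of Rpl3l passed at an FDR under 0.05, as did 36% of all genes.

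Rpl3, which forms part of the peptidyl transferase centre, was higher in every BCR-ABL1 line, at 1787 to 2097 CPM (median 1886) against 932 to 1682 (median 1284) in EV, a log2 fold change of 0.55 ± 0.118 (SE; FDR 0.00265 against no change). Rpl3l had at most 3.03% of the CPM of Rpl3 in EV and at most 0.0976% in BCR-ABL1 lines, so its change hardly touches the sum for the pair. Their coding sequences were 73.9% identical with no shared stretch of 100 bases, and no 100-base window of Rpl3l was found in another annotated gene.

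In the third pair, Rps27l rose and Rps27 gave nearly equal means. Rps27l, a p53-responsive twin of Rps27, was at 118, 163 and 168 CPM in EV 1A to 1C, 182, 165 and 293 in EV 2A to 2C, 366, 352 and 332 in BCR-ABL1 1A to 1C and 342, 289 and 261 in BCR-ABL1 2A to 2C. The conditions overlapped through EV 2C alone. The log2 fold change was 0.84 ± 0.189 (SE; FDR 0.00281 against no change, 0.162 against 1.5-fold). Rps27 was at 1085 to 1772 CPM (median 1542) in EV and 1170 to 1699 (median 1549) in BCR-ABL1 lines, with a log2 fold change of 0.02 ± 0.139 (SE). That gene is uncertain, since 98.4% of the windows of its transcript are also in Rps27rt and Gm17241. The ratio of Rps27l to Rps27 was 10.1% to 19.0% in EV and 20.1% to 22.4% in BCR-ABL1 lines.

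The other copies were closer to their parent genes. Rpl36al, an intronless copy of Rpl36a, was higher in every BCR-ABL1 line (3.27 to 3.80 CPM, median 3.40) than in any EV line (1.93 to 3.16, median 2.16), at a log2 fold change of 0.61 ± 0.107 (SE; FDR 0.00396 against no change). Rpl36a was at 458 to 962 CPM in EV and 822 to 1087 in BCR-ABL1 lines, with a log2 fold change of 0.47 ± 0.163 (SE). Rpl7 passed the test against no change at 0.48 ± 0.115 (SE), whereas Rpl7l1 missed it at 0.26 ± 0.104 (FDR 0.0514) and passed at 0.38 without EV 2C, a line that stood above the other EV lines for it. Their coding sequences were 87.9% identical for Rpl36a and Rpl36al and 56.9% for Rpl7 and Rpl7l1. Rps4l, listed as a transcribed pseudogene, had at most 5 counts in a line.

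**Figure D3:**
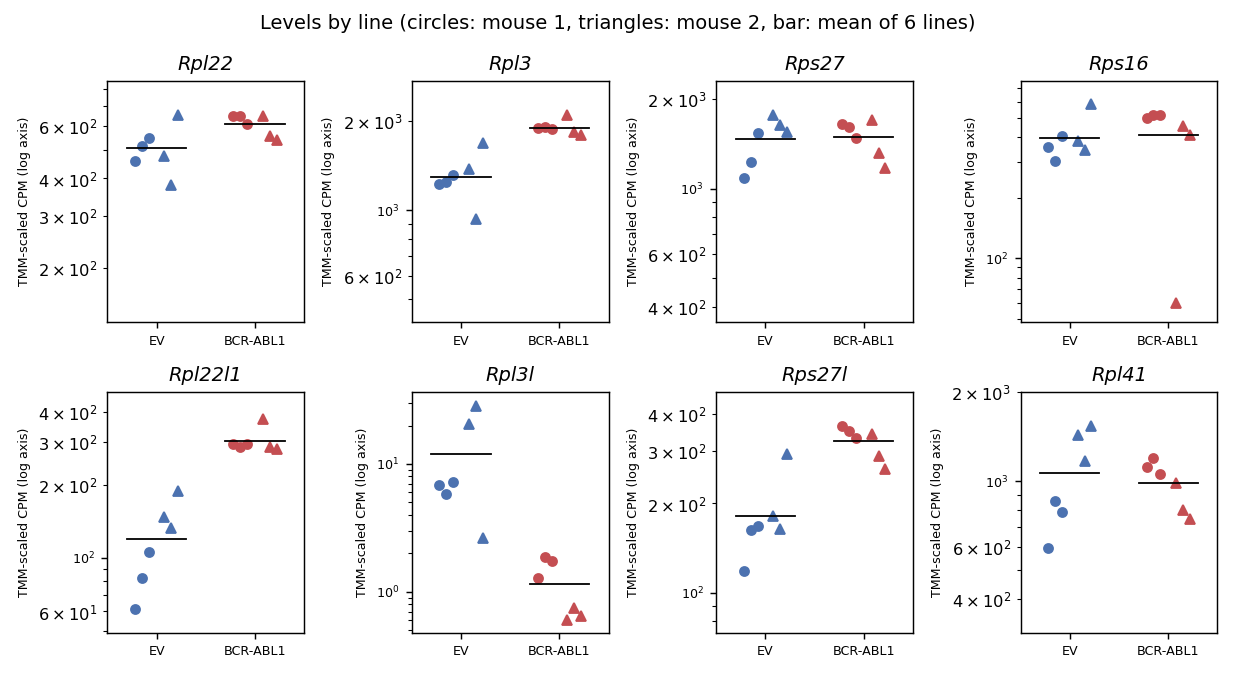
TMM-scaled CPM on log axes of 3 core genes above their paralogs, and of Rps16 and Rpl41, with circles for lines of mouse 1, triangles for mouse 2 and bars for the mean of 6 lines. Rpl22l1 lies above and Rpl3l below the EV lines in all 6 BCR-ABL1 lines, Rps16 falls to 60.1 CPM in 1 line, and the order of the mice for Rpl41 is opposite in the conditions.

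Rps16, a small subunit protein, departed in a single line. Its levels were 360, 306 and 407 CPM in EV 1A to 1C, 384, 347 and 586 in EV 2A to 2C, 497, 515 and 516 in BCR-ABL1 1A to 1C, and 60.1, 454 and 411 in BCR-ABL1 2A to 2C. BCR-ABL1 2A, with 3122 counts, was at 0.121 of the median of the other 5 BCR-ABL1 lines. Of 2216 genes with a mean of at least 100 CPM, 3 had a ratio that low: Tmem132e, Prss23 and Rps16. The gene was singled out after its values were seen. Its log2 fold change of 0.04 ± 0.517 (SE) rested on that line: without BCR-ABL1 2A it was 0.26, and without that line and EV 2C it was 0.40 and passed the test against no change (FDR 0.00438).

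Rps16 lies on chromosome 7 (28350652 to 28353155). Its neighbours Timm50, Supt5, Med29 and Paf1 were within the range of the other 11 lines in BCR-ABL1 2A, at 58.8, 155, 15.4 and 58.2 CPM. Plekhg2 at 21.9 and Zfp36 at 24.5 were just below the lowest other line, at 28.9 and 26.7. AF357399, a small RNA gene inside Rps16, was at 2.19 CPM in that line, 4.17 to 6.00 in the other BCR-ABL1 lines and 1.90 to 4.20 in EV lines. In the transcript of Rps16, 33.9% of the 100-base windows are also in Rps16-ps2 and Gm8623. Rps16-ps2 had 12 counts in BCR-ABL1 2A and 48 to 126 in the other lines, and Gm8623 had none in that line and at most 6 elsewhere. Neither was higher in that line than in the others, and the cause of the low level was not tested.

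Among the genes of known function, those of the acidic stalk, which recruits elongation factors, did not pass the test over all lines, but each passed without EV 2C. Rplp0 was at 1475 to 2465 CPM in EV and 2072 to 2554 in BCR-ABL1 lines (log2 fold change 0.28 ± 0.116 SE, FDR 0.0701), and Rplp1 and Rplp2 gave 0.33 and 0.26 (FDR 0.0804 and 0.179). Without EV 2C the FDR of Rplp0, Rplp1 and Rplp2 was 0.00766, 0.00363 and 0.0217. Rpl5 and Rpl11, which with 5S rRNA bind Mdm2 when ribosome assembly fails, were both higher. Rpl5 was at 857 to 1296 CPM (median 990) in EV and 1170 to 1465 (median 1301) in BCR-ABL1 lines, a log2 fold change of 0.34 ± 0.096 (SE; FDR 0.0148). Rpl11 changed by 0.35 ± 0.112 (FDR 0.0232). Rpl26, which can bind p53 mRNA, rose by 0.46 on the same scale.

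Rps6, the substrate of the S6 kinases, was higher at 1578 to 2066 CPM (median 1778) against 1027 to 1616 (median 1286), with EV 2C as the only overlapping EV line and a log2 fold change of 0.46 ± 0.105 (SE; FDR 0.0043). Rps19 and Rps14, genes linked to Diamond-Blackfan anaemia and the 5q- syndrome, did not pass (0.43 ± 0.205 and 0.17 ± 0.160). Without EV 2C Rps19 passed at 0.62 (FDR 0.00428) and Rps14 still did not (FDR 0.106). Rpl10, which is mutated in T cell leukaemia, Rpsa, also known as the laminin receptor, and Rps27a, which is made as a fusion with ubiquitin, were higher at 0.45, 0.41 and 0.56. Further genes called higher were Rps20 at 0.67 ± 0.143, Rps2 at 0.66 ± 0.185, Rpl4 at 0.41 ± 0.107, Rps4x at 0.44 ± 0.137 and Rps25 at 0.39 ± 0.146 (SE). The call of Rps25 was lost under 13 of 23 alternatives. Rpl4 is named because its lines did not overlap. Rpl38, Rpl39, Rps3, Rps29 and Rps3a1 gave 0.35, 0.28, 0.28, 0.29 and 0.28 and missed the threshold, each passing it without EV 2C.

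Levels between genes were compared per length, as the mean CPM over the 12 lines divided by the kilobases of annotated exon. Rps29, Rplp1 and Rps3a1 were the highest at 2930, 2818 and 2046 CPM per kb, and the family median was 545. Rpl36al, Rpl3l and Rpl24 were the lowest at 2.12, 3.96 and 4.05 CPM per kb. The level of Rpl36al, from 63 to 224 counts in a line, is uncertain. Of its exon bases 24.5% overlap Gm49383 on the same strand, and 21.7% of its transcript windows are found in other genes. Rpl24 is a core protein whose level is uncertain, since 47.0% of its exon bases overlap Gm28037 on the same strand and 80.1% of its transcript windows are found in other genes. For Rpl13a, at 35.4 CPM per kb, the overlap was 35.4% with Gm45713 and small RNA genes in it. Rpl24 and Rpl13a had log2 fold changes of 0.43 and 0.44 that passed the test against no change, a call that Rpl24 lost under 14 of 23 alternatives and Rpl13a under 1. Over the family the median share of windows found elsewhere was 34.3%, and 31 of 82 genes exceeded 50%. Pseudogenes with ribosomal protein symbols took 0.00947% to 0.0149% of counts in EV and 0.0121% to 0.0152% in BCR-ABL1 lines.

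Far fewer genes were called in the lines of mouse 2. In mouse 1, 81 of 82 log2 fold changes were positive, the median was 0.53 and 80 genes were called higher against no change, beside 34.6% of all genes in that fit. In mouse 2, 66 were positive, the median was 0.19 and 1 gene was called higher, beside 9.16% of all genes. For the interaction between mouse and condition, 6 of the 82 genes (7.32%) passed, beside 16.9% of all tested genes. All 6 had a lower change in mouse 2: Rpl17, Rpl34 and Rpl41 of the large and Rps10, Rps18 and Rps19 of the small subunit. Passing or not, the interaction was negative in 80 of the 82 genes over all lines and in 54 without EV 2C. It was negative in 77 to 82 genes when any other single line was left out. EV lines of mouse 2 included EV 2C, and without it the interaction passed in 8 genes, beside 36% of all genes. Leaving out EV 2B gave 20 of the 82 genes, beside 19.6% of all, so that the family was then above the share of all genes and no longer below it. Leaving out EV 1A gave 2, Rpl17 and Rpl41, beside 13.1%.

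Rpl41, which encodes the smallest ribosomal protein, had the largest interaction in size of the 6. It was at 597, 859 and 786 CPM in EV 1A to 1C and 1426, 1168 and 1540 in EV 2A to 2C, and at 1120, 1201 and 1061 in BCR-ABL1 1A to 1C and 986, 798 and 744 in BCR-ABL1 2A to 2C. Lines of mouse 2 were thus the higher ones in EV and the lower ones in BCR-ABL1, without overlap in either. The log2 fold change was 0.60 in mouse 1 (FDR 0.00149) and -0.70 in mouse 2 (FDR 0.0396), an interaction of -1.30 (FDR 0.00243), and -0.11 ± 0.245 (SE) over all lines. Rps18, in the head of the small subunit, was at 844 to 1064 CPM in EV lines of mouse 1, 1145 to 1965 in those of mouse 2, 1494 to 1618 in BCR-ABL1 lines of mouse 1 and 1139 to 1338 in those of mouse 2 (interaction -1.04, FDR 0.0126). Rpl17 and Rps19 had interactions of -0.88 and -0.96, and Rpl34 and Rps10 of -0.66 and -0.74. Over all lines Rps10 changed by 0.20 ± 0.147 (SE) and did not pass edgeR's test against no change (FDR 0.266). Without EV 2C Rps10 passed at 0.32 (FDR 0.0349).

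**Figure D4:**
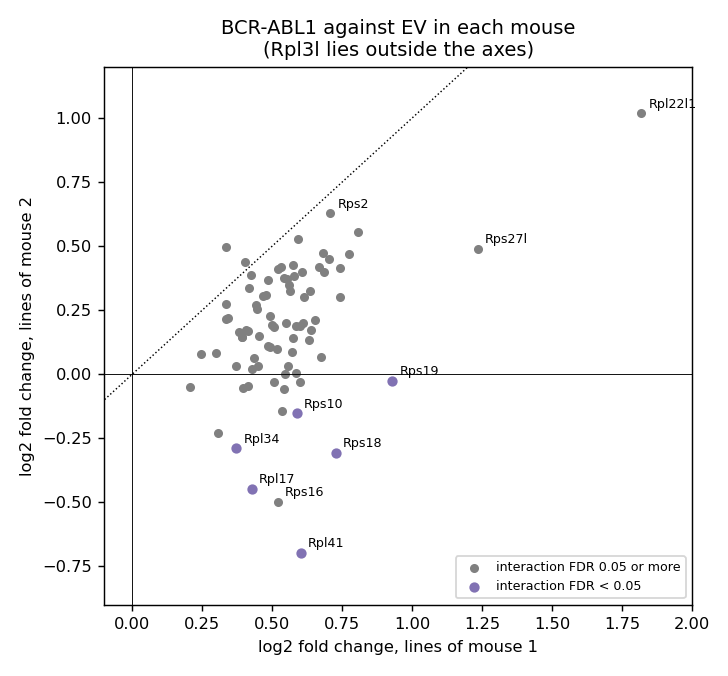
Log2 fold change between BCR-ABL1 and EV lines in mouse 1 (horizontal) and mouse 2 (vertical) for 81 of the 82 genes, with the dotted line where both are equal and purple points where the interaction passed at an FDR under 0.05. Most points lie below the line, Rpl41 lies at 0.60 and -0.70, and Rpl3l lies outside the axes.

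Genes with and without the pyrimidine run were set side by side. The 19 genes with a run of at least 7 over the annotated start had a median log2 fold change of 0.28, and 6 were called higher against no change. The 43 genes with a window but no such run had a median of 0.37, and 25 were called higher. Among all tested genes 22.5% were called higher. In mouse 1 the medians were 0.53 and 0.54, and in mouse 2 0.06 and 0.21. Of the 6 genes whose change differed between the mice, Rpl34, Rps10 and Rps18 had a run, 2 had a window without it and 1 had no window. The interaction passed in 16.9% of all tested genes. These are descriptions of lists of unequal size with no test.

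The genes that build ribosomes had a larger median change than the ribosomal protein genes, a difference that was not tested. Of 110 tested genes for ribosome biogenesis, 85 (77.3%) were called higher against no change and 1 lower, with a median log2 fold change of 0.55. Against 1.5-fold 2 were higher, Wdr75 (46 to 124 CPM in EV, 149 to 178 in BCR-ABL1 lines) and Gnl3, a nucleolar GTPase (60 to 265 and 268 to 339 CPM), and 1 was lower, the helicase Ddx54 (220 to 339 and 145 to 162 CPM). The 2 higher genes were 1.82% of the list, below the 5.99% of all tested genes. Without EV 2C, 41 passed the 1.5-fold test as higher, beside 8.83% of all genes in that fit. Of 42 translation factors and other mRNAs known for TOP motifs, 31 were called higher against no change, with a median of 0.40, led by Npm1 at 0.92 and the release factor Etf1 at 0.84. These missed the 1.5-fold test of edgeR (FDR 0.134 and 0.117), which 7 of the 42 passed without EV 2C, beside 8.83% of all genes. Of 77 mitochondrial ribosomal protein genes 34 (44.2%) were higher and 4 lower against no change, beside the 22.5% and 25.9% of all genes, with a median of 0.23. Without EV 2C 54 were higher, beside 26.5% of all genes, with a median of 0.31. Mrpl19 at 0.72 and Mrpl36 at 0.67 rose most among those called, and Mrpl52 at -1.11 and Mrpl24 at -0.50 fell most. Fau and Rack1, ribosomal proteins with other symbols, gave 0.14 and 0.25 and did not pass, and Rack1 passed without EV 2C (FDR 0.00453).

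Regulators of the family moved in both directions. Of 27 genes of the mTOR, Myc and p53 pathways, 12 (44.4%) were higher and 6 lower against no change. Among all tested genes 22.5% were higher and 25.9% lower, so the count of lower genes was not above that share. Rps6ka1, a kinase of Rps6, was at 0.390 to 9.65 CPM in EV and 40.0 to 47.8 in BCR-ABL1 lines (log2 fold change 3.54 ± 0.859 SE, FDR 0.00932 against 1.5-fold). Eif4ebp1, an mTOR target that blocks cap-dependent initiation, rose by 1.17, and Mxd4, an antagonist of Myc, fell by 1.40. Mxd1 gave -0.77 and passed against no change only. Mycn was at 99.9 to 106 CPM in BCR-ABL1 lines and in EV at 2.83 to 6.53 in 5 lines and 76.4 in EV 2C, a log2 fold change of 2.66 ± 0.732 (SE; FDR 0.0191 against no change). Myc was at 31.0 to 195 CPM in EV and 70.4 to 135 in BCR-ABL1 lines and did not pass (FDR 0.695).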

How the data were processed

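RNA-seq of 12 mouse pre-B cell lines was used, 6 EV and 6 BCR-ABL1, with 3 lines per condition from each of 2 mice. The authors deposited whole-number counts per gene, without normalization and without pooling of lines. The submitters' processing notes name FastQC 0.11.5, Trimmomatic 0.36, TopHat2 2.1.1, Bowtie2 2.3.2, featureCounts 1.5.3, R 3.6.1, edgeR 3.18.1 and GRCm38. How reads matching several places or overlapping genes were counted is not given in the sources used here, and ribosomal protein genes have many near-identical copies, so their counts can be split or lost.

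GENCODE M21 (GRCm38) gave symbols, positions and transcripts for 51633 of 51826 identifiers, and RefSeq the promoter windows (GRCm38.p6). Counts were analysed in R 4.3.3 with edgeR 4.0.16 (filterByExpr, TMM, quasi-likelihood fit, condition as the only term). glmTreat tested a 1.5-fold change and glmQLFTest no change, with Benjamini-Hochberg adjustment over 15038 genes at 0.05. DESeq2 1.42.0, a likelihood ratio fit, other filters and scalings, and fits without single lines were alternatives. Single values were tested by exact permutation. CPM are TMM-scaled. Shares are of all counts on genes, 34791011 to 66011225 per line, with 95% Wilson intervals that cover counting error only.

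Lines of the same mouse deviated together across conditions (correlations of 0.0853 to 0.24, and -0.203 to -0.0636 between mice), whereas letters did not pair lines within a mouse (-0.109 to 0.0856). No 2 lines of 1 mouse and condition agreed within sampling noise (chi-square per gene of at least 9.36). The p-values measure the spread between lines of 2 animals. Python 3.11.15 with matplotlib 3.10.9 served for the plots.

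The genes and lists were chosen with earlier results of these data known. Genes named in the text are those of a list of known roles, all genes called by the 1.5-fold, relative or interaction test, the 5 largest and 5 smallest log2 fold changes, the 3 highest and 3 lowest levels per length, and of each further list the 2 largest rises and falls among called genes. Rps16, Rpl4 and Myc were named after their values were seen.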

Additional observations from a re-analysis of the deposited data

Results flagged for a closer look

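In groups of 6 lines, a line was flagged where Dixon's ratio passed its 95% critical value, which chance gives in about 1 in 20 groups. Over the 82 genes this held in 15 of 164 tests. EV 2C was the line in 10 of them and BCR-ABL1 2A in 5. EV 2C was high for Rpl24 (5.16 CPM, others at most 3.52), Rpl36al (3.16, others at most 2.23), Rpl7l1 (157.8, others at most 114), Rps16 (585.7, others at most 407) and Rps27l (293.3, others at most 182.0). BCR-ABL1 2A was high for Rpl22l1 (372.9 CPM, others at most 295), Rpl4 (2463, others at most 2188), Rpl7 (2585, others at most 2069) and Rps2 (2488, others at most 2284). The same line was low for Rps16 (60.1 CPM, others at least 411) and for the share of Malat1 (0.328%, others at least 0.504%).

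The change between conditions differed between the mice, by the interaction in edgeR's quasi-likelihood test at an FDR under 0.05, for Rpl17 (-0.88 on the log2 scale), Rpl34 (-0.66), Rpl41 (-1.30), Rps10 (-0.74), Rps18 (-1.04) and Rps19 (-0.96). The mice differ in 1 animal each, so that an effect of the animal and one of its cultures cannot be told apart.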

How the results depend on the processing

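The higher share of the family kept its direction under every alternative run. The difference in the summed share was 1.46 to 2.31 percentage points when single lines were left out, and it missed the threshold without EV 2B (1.46) or BCR-ABL1 2A (1.59), with protein-coding counts as denominator (1.45), without the 50 largest other genes (1.63), and in mouse 1 (2.33) or mouse 2 (1.24) alone, where it could not pass.

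Genes higher by 1.5-fold numbered 1, between 1 and 3 when single lines were left out, 4 in mouse 1 alone, 0 in mouse 2 alone (where the 1.5-fold, relative test also gave 0) and 2 without both EV 2C and BCR-ABL1 2A. All genes higher by 1.5-fold came to 16.3% in mouse 1, 3.99% in mouse 2, 8.83% without EV 2C and 7.99% without both lines, above the family's share in each. Those higher against no change numbered 41, and between 28 (without BCR-ABL1 2A) and 69 (without EV 2C) when single lines were left out. They numbered 80 in mouse 1, 1 in mouse 2 (with 2 lower) and 65 without both lines. Among all genes 19.5% were higher against no change without BCR-ABL1 2A, 26.5% without EV 2C, 34.6% in mouse 1 and 9.16% in mouse 2. Without both lines 3773 of all 15111 genes in that fit were higher. Ribosome biogenesis genes higher by 1.5-fold went from 2 to 41 without EV 2C, where 7 translation factors also passed. The median of the family was 0.53 in mouse 1, 0.19 in mouse 2, 0.28 without TMM (all genes -0.09) and 0.37 with DESeq2. The interaction passed in 6 genes, in 2 to 20 when single lines were left out, 3 without TMM and 19 without both lines. Of all genes it passed in 16.9% over all lines, 20.5% without TMM and 36.7% without both lines. It passed in 13.1% of all genes without EV 1A, which gave the 2, and in 19.6% without EV 2B, which gave the 20.

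With mouse as a replicate block, 41 genes were higher and 1 lower against no change, and with the line name as a replicate block 33 and 1. Among all genes 25.1% and 21.4% were higher in these 2 fits. Both blocks gave 1 higher and 1 lower against 1.5-fold, where 7.49% (mouse) and 6.14% (line name) of all genes were higher.

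Directions that reversed were those of genes near 0, below the threshold over all lines. Rpl17 turned to 0.43 in mouse 1, 0.022 without a count filter and 0.089 without both lines, and Rpl41 to 0.60 and 0.021 in the first and last of these. In mouse 2 Rpl34, Rps10, Rps14, Rps16, Rps18, Rps19 and Rps27 gave -0.29, -0.15, -0.14, -0.50, -0.31, -0.026 and -0.23. Without TMM Rpl34, Rps16 and Rps27 gave -0.037, -0.020 and -0.038. Rps27 gave -0.013 without both lines, and Rps16 -0.13 with the line name as block and 0.40 without both lines. Leaving out single lines gave -0.092 to 0.074 for Rpl17, -0.20 to 0.030 for Rpl41, -0.023 to 0.11 for Rpl34, -0.035 to 0.26 for Rps16 and -0.028 to 0.085 for Rps27. The causes were not tested.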
